A study of Drosophila melanogaster with 10 samples.

Results

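MBD-R2 dsRNA construct M2 was compared with control dsRNA against GST in Drosophila SL2 cells, an established male line derived from embryos. The comparison used the 3 arrays whose source name gives construct M2 and the 3 arrays of GST dsRNA, 6 of the 10 arrays of the series. All 6 cultures received 10 µg of double-stranded RNA for 1 hour in serum-free medium and were kept for 7 days at 26 °C before total RNA was extracted. The other arrays held 3 samples of a different construct against the same transcript, M1, and 1 sample without dsRNA. M2 replicate 3 is titled M3 but carries the source name M2, and it was taken as M2. The labels do not say which GST sequence the control dsRNA matches. The replicates are biological per the series' design text, and the p-values measure the spread between these arrays.

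MBD-R2 is a chromatin protein of the NSL complex, which also contains the histone H4 lysine 16 acetyltransferase MOF. The NSL complex is known to bind promoters of active genes, many of them housekeeping genes. MOF is also part of the MSL complex, which serves dosage compensation of the male X chromosome. The comparison asks which transcripts change in abundance after dsRNA against MBD-R2. Levels of the MBD-R2 transcript were not analysed here. Whether it was depleted was therefore not checked, and the groups are named by their dsRNA.

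Values are deposited log2 expression values, in which 1 unit is a 2-fold difference. The lowest value in the table was 2.22, and on each array 50.6 to 53.2% of probe sets were within 0.1 of it. A fall that ends there or a rise that starts there is therefore limited by the scale. Replicates 1 and 2 of each group belonged to one array set and replicate 3 to another. Within the tested probe sets, GST replicates 1 and 2 differed by over 2-fold at 264, and either differed from GST replicate 3 at 1078 or 1285. M2 replicates 1 and 2 differed at 25, and either differed from M2 replicate 3 at 1586 or 1532. The array set was a block in the test. Genes that define hemocytes, the blood cell lineage that SL2 cells resemble, were high in both groups. Collagen gene Col4a1 averaged 14.9 in GST and 14.8 in M2 arrays, Hml 13.7 and 13.6, He 13.0 and 12.9, and the GATA factor gene srp 12.2 and 12.4. NimC4 and atilla lay at 2.22 and 2.25 in GST arrays.

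M2 arrays differed from GST arrays at a large share of the genes tested, and falls were more numerous than rises. In limma's test 2543 of 7308 probe sets passed (34.8% of those tested), 991 higher with M2 (13.6%) and 1552 lower (21.2%). At 1 probe set per gene, 1413 of 5915 genes fell (23.9%) and 730 rose (12.3%). The median difference of called genes was a fall of 1.11 or a rise of 0.942 on the log2 scale, and 55 of these falls and 28 of these rises exceeded 3 log2 units. Differences of over 2-fold were called at 899 probe sets downwards and 460 upwards. Leaving out M2 replicate 1 or M2 replicate 2 reduced the calls to 1572 and 1583.

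The split between falls and rises depended on the scaling of the arrays. Of all calls 61.0% were falls in the values as deposited, 52.3% of 2692 calls after quantile normalisation and 54.3% of 2718 after centring on the median. Centring on the hybridisation spike-in controls left 63 calls, 20.6% of them falls, and moved the median of all probe sets from -0.01 to 0.42. GST replicate 2 had a spike-in median of 13.12, GST replicates 1 and 3 of 10.66 and 10.84, and M2 arrays of 10.99 to 11.33. Without that array, an alternative added once the data had been seen, spike-in centring gave 2488 calls, 84.1% of them falls, and a median of -0.42. Directions below are those in the deposited scale, that is, relative to a median of -0.06 over genes.

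**Figure D1:**
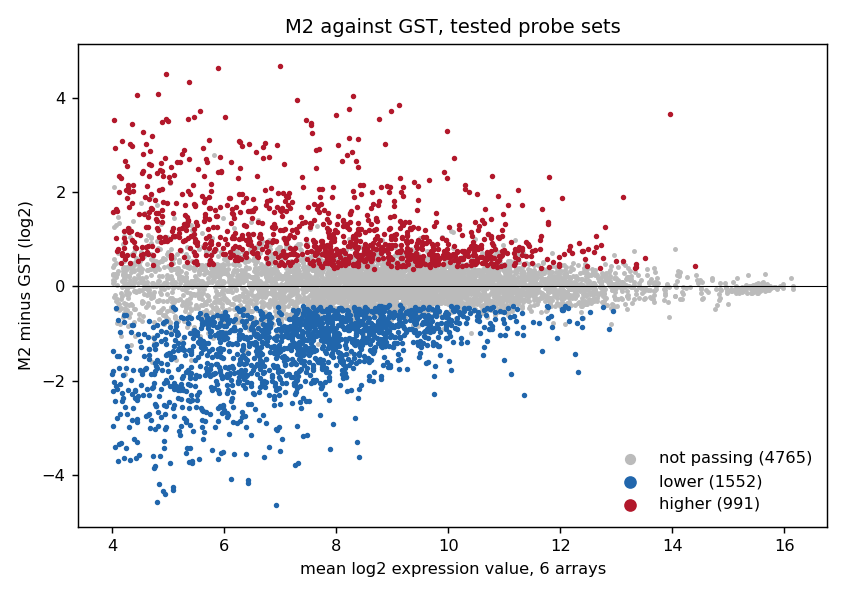
Difference between M2 and GST (log2, y axis) against the mean log2 value over the 6 arrays (x axis) for the 7308 tested probe sets. Blue points are the 1552 that were lower with M2, red points the 991 that were higher, and grey points did not pass. The largest differences of either sign lie at low and middle levels, and genes near the top of the scale moved little.

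The largest falls and rises named below are genes with a symbol that passed in the 6-array fit and in each fit leaving out 1 array, with the same sign for each replicate number. There were 909 such falls and 313 such rises. They were chosen by size, so their values are a description of the extremes. All 30 also passed with the replicate number as a block and with no block. In all 30 genes the 3 M2 values lay on one side of the 3 GST values, as in 27.5% of tested genes downwards and 13.0% upwards.

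Genes for the assembly of respiratory complexes and for mitochondrial translation were among the deepest falls. Sdhaf3, an assembly factor of succinate dehydrogenase, stood at 6.68, 7.40 and 7.35 in GST replicates 1 to 3 and at 2.65, 2.47 and 3.07 in the M2 replicates. All 3 M2 arrays were within 1 unit of the lowest table value, and the log2 difference was -4.41 ± 0.21 (SE, limma, adjusted p = 0.00017). Surf1, needed to assemble cytochrome c oxidase, gave 7.29, 7.28 and 7.34 with GST and 3.44, 3.51 and 3.69 with M2. This was a separation of -3.76 ± 0.12 with almost no spread inside either group. GatB, a subunit of the amidotransferase that makes mitochondrial glutaminyl-tRNA, fell from 6.44, 6.23 and 6.09 to 2.76, 2.54 and 2.49 (-3.65 ± 0.14). TyrRS-m, the mitochondrial tyrosyl-tRNA synthetase, fell from 6.41, 6.44 and 7.08 to 3.09, 3.03 and 3.01 (-3.60 ± 0.18). Its 3 M2 arrays agreed to within 0.1 although the GST arrays spanned over 0.6.

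Genes for chromosome segregation and genome maintenance fell as far. Mis12, a core kinetochore protein, gave 8.76, 8.46 and 8.33 with GST and 4.86, 5.13 and 4.67 with M2, a difference of -3.63 ± 0.15. Its M2 values stayed above the lowest part of the scale, so this fall was measured on both sides. Nse1, a RING subunit of the Smc5/6 complex, fell from 6.97, 7.04 and 6.70 to 3.40, 2.91 and 3.17 (-3.74 ± 0.17). The groups were more than 3 units apart in every pairing of arrays.

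Several falls concerned RNA and protein modification or metabolism. Uxt, a prefoldin-like protein, gave 7.65, 6.73 and 7.25 with GST and 2.81, 3.23 and 2.82 with M2 (-4.26 ± 0.27). Urm1, a ubiquitin-like protein that serves tRNA thiolation, fell from 5.74, 6.43 and 7.40 to 2.29, 2.75 and 3.74 (-3.60 ± 0.23). Both groups of Urm1 were highest in replicate 3, and the difference was kept within each array set. Mesh1, a hydrolase of the alarmone ppGpp and of NADPH, gave 5.87, 5.06 and 7.15 with GST and 2.39, 2.38 and 2.36 with M2 (-3.65 ± 0.40). The M2 arrays lay together near the lowest value, while the GST arrays were spread over 2 units. The pyridoxine phosphate oxidase gene sgll gave 7.07, 6.69 and 7.95 with GST and 3.18, 3.26 and 4.06 with M2 (-3.73 ± 0.15). GstE13, an epsilon class glutathione S-transferase, fell from 9.24, 9.44 and 8.89 to 6.01, 6.03 and 4.29 (-3.74 ± 0.28). Replicate 3 held its lowest M2 value.

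Genes known from sensory neurons or the germline were also among the falls, from levels well above the lowest value in control cells. Gr61a, a gustatory receptor of the sugar receptor group, gave 7.14, 7.17 and 6.97 with GST and 2.57, 2.45 and 2.51 with M2. This was the largest fall, -4.58 ± 0.12 (SE, limma, adjusted p = 0.00011). Ir76a, an ionotropic receptor, fell from 7.60, 7.64 and 6.52 to 2.82, 3.03 and 2.91 (-4.33 ± 0.24), and nxf2, of a family of RNA export factors and known from piRNA silencing, from 6.70, 6.56 and 6.73 to 2.88, 2.84 and 2.81 (-3.82 ± 0.12). For f-cup the values were 7.66, 7.45 and 7.05 with GST and 4.01, 3.64 and 3.50 with M2 (-3.67 ± 0.15). Of the 15 falls, 10 had an M2 mean within 1 unit of the lowest value. In the culture without dsRNA 13 of the 15 lay within 1 unit of the GST mean.

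In 11 of these 15 genes the annotated gene overlaps another gene, and in 5 of the 15 largest rises. The share over all tested genes was not determined, so these counts are not read as a trait of falls or rises. Of the partners of the falls 6 were tested. Uxt overlaps yuri, whose difference was -0.27 (limma, adjusted p = 0.18). Surf1 overlaps sgl (-0.25, adjusted p = 0.20), and GstE13 overlaps CG18659 (0.06, adjusted p = 0.82). TyrRS-m overlaps CG3594 (-0.46, adjusted p = 0.066). None of these 4 partners passed. The nxf2 gene overlaps mbf1, which rose by 0.74 (adjusted p = 0.025). In contrast CG11899, which overlaps Mesh1, fell too, by 1.76 (adjusted p = 0.0025). Among the rises superdeath overlaps CG14511, which fell by 1.53 (limma, adjusted p = 0.032). The platform annotation gives no strand for the probes, so signal was assigned as that annotation names it.

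**Figure D2:**
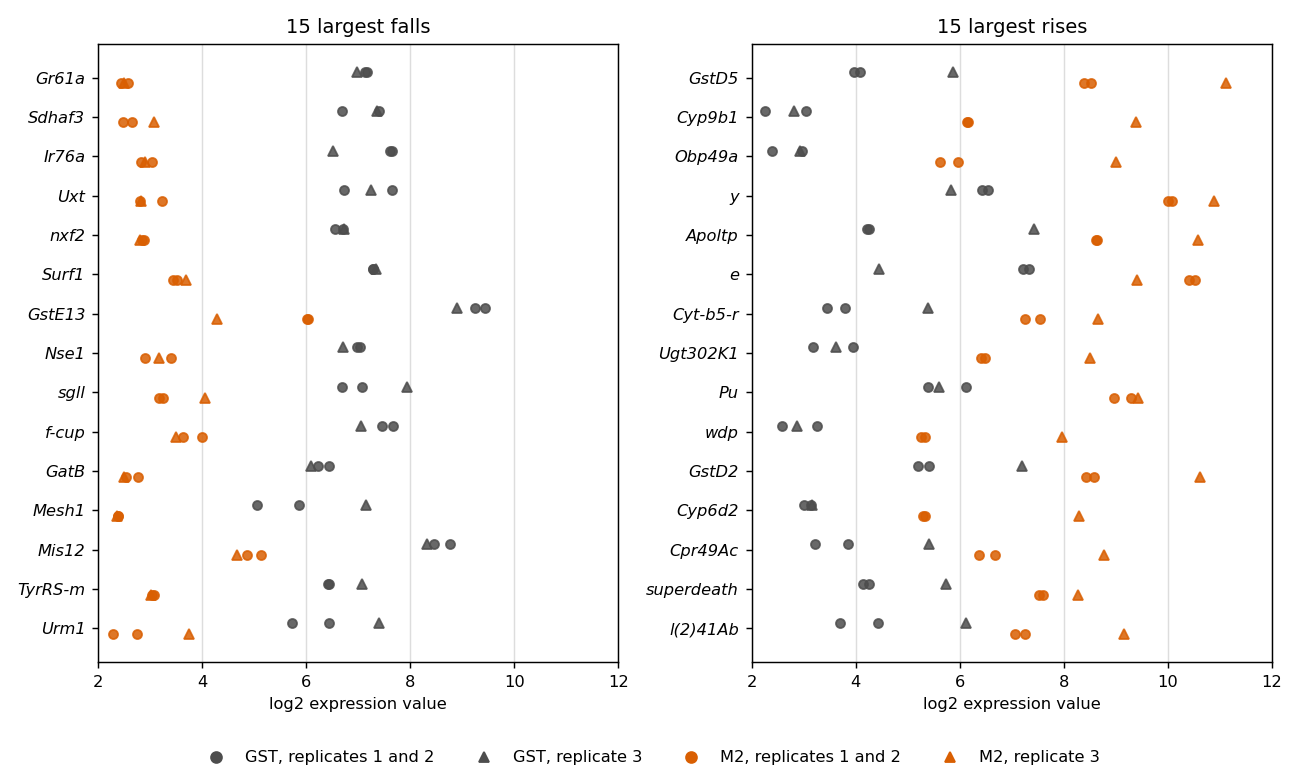
Log2 expression values (x axis) of the 15 largest falls (left) and 15 largest rises (right) in each of the 6 arrays. Grey symbols are GST and orange symbols M2, with circles for replicates 1 and 2 and triangles for replicate 3. The 2 colours do not overlap in any of the 30 genes, many M2 values of the falls lie between 2 and 4, and the M2 triangles stand to the right for most rises.

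Genes of detoxification were among the largest rises. GstD5, a delta class glutathione S-transferase, stood at 4.09, 3.97 and 5.88 with GST and at 8.38, 8.51 and 11.11 with M2. Both groups were higher in replicate 3, and the difference was 4.69 ± 0.20 (SE, limma, adjusted p = 0.00011). GstD2 gave 5.41, 5.20 and 7.20 with GST and 8.43, 8.58 and 10.61 with M2 (3.27 ± 0.13). In the culture without dsRNA GstD5 was at 6.08 and GstD2 at 7.53, near GST replicate 3. The cytochrome P450 gene Cyp9b1 rose from 3.04, 2.27 and 2.82 to 6.14, 6.15 and 9.38 (4.52 ± 0.63), and Cyp6d2 from 3.14, 3.01 and 3.17 to 5.34, 5.29 and 8.30 (3.20 ± 0.57). Ugt302K1, a UDP-glycosyltransferase, rose from 3.94, 3.18 and 3.63 to 6.49, 6.41 and 8.50 (3.55 ± 0.44). In these 3 genes the GST arrays were alike, while M2 replicate 3 exceeded the other M2 arrays by 2 units or more. Their GST means of 2.71, 3.11 and 3.58 were below the mean log2 of 4 required for testing. They were thus tested only because of their M2 values, and their place among the rises follows in part from that filter. Cyt-b5-r, related to cytochrome b5, gave 3.44, 3.81 and 5.39 with GST and 7.25, 7.54 and 8.66 with M2 (3.61 ± 0.18).

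Pigment and cuticle genes formed another group of rises. The gene y, which is required for black pigment, gave 6.54, 6.43 and 5.83 with GST and 10.07, 10.01 and 10.89 with M2 (4.06 ± 0.32). The gene e, whose enzyme conjugates dopamine with beta-alanine, gave 7.21, 7.33 and 4.45 with GST and 10.52, 10.40 and 9.41 with M2 (3.78 ± 0.36). Here replicate 3 was the lowest in both groups, in contrast to most rises. Pu, the GTP cyclohydrolase of pteridine synthesis, rose from 6.12, 5.38 and 5.59 to 8.97, 9.29 and 9.43 (3.53 ± 0.24). The cuticular protein gene Cpr49Ac rose from 3.23, 3.85 and 5.41 to 6.37, 6.68 and 8.78 (3.12 ± 0.21).

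The remaining rises came from several classes. Apoltp, a lipid transfer apolipoprotein, gave 4.26, 4.22 and 7.43 with GST and 8.63, 8.62 and 10.58 with M2 (3.97 ± 0.26). The odorant-binding protein gene Obp49a rose from 2.97, 2.40 and 2.93 to 5.62, 5.97 and 9.01 (4.10 ± 0.61). The leucine-rich repeat gene wdp rose from 3.26, 2.58 and 2.87 to 5.33, 5.25 and 7.97 (3.28 ± 0.57). The GST means of Obp49a, wdp, Cyp9b1 and Cyp6d2 were within 1 unit of the lowest value, so their baseline is a bound rather than a level. Obp49a and wdp too reached the mean log2 of 4 required for testing only through their M2 values. The symbols superdeath and l(2)41Ab marked rises of 3.09 ± 0.20 and 3.07 ± 0.21, and further probe sets of l(2)41Ab gave 1.05 (limma, adjusted p = 0.025) and 3.50 (adjusted p = 0.00011). Of the 15 rises, 7 lay within 1 unit of the GST mean in the culture without dsRNA, and y (6.06), Pu (5.44) and Cyp9b1 (2.45) were among them. That mean spans both array sets. Over all tested probe sets the array without dsRNA differed by over 2-fold from GST replicates 1, 2 and 3 at 1091, 1400 and 16. Distance from the GST mean can therefore reflect the array set. Of the 30 largest changes each way, whatever their name, 14 falls and 11 rises carried only a CG or CR number.

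The difference between M2 and GST was compared between the array sets. Of 1313 falls called in replicates 1 and 2 alone, 1285 (97.9%) were also lower in replicate 3, and of 854 rises 736 (86.2%) were also higher there, against 76.8% with the same sign over all probe sets. The median of those falls was -1.16 in replicates 1 and 2 and -1.47 in replicate 3, and that of the rises 0.97 and 1.10. A test of the difference between the sets called no probe set in limma (smallest adjusted p = 0.058), while 1652 had an unadjusted p under 0.05. Replicate 3 holds 1 array per group and gave no test of its own. The heat shock genes show what the block removes. Hsp68 gave 9.64, 9.90 and 12.85 with GST and 8.11, 8.33 and 11.19 with M2, a difference of -1.59 ± 0.14 although the groups overlap. Hsp26 (-1.36 ± 0.18) and Hsp27 (-1.86 ± 0.36) had the same layout, with replicate 3 high in both groups.

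**Figure D3:**
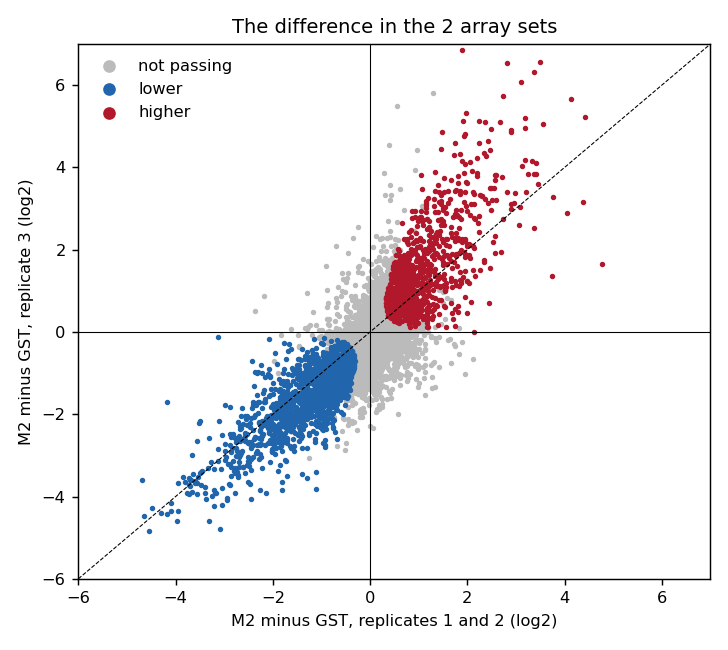
M2 minus GST (log2) in replicates 1 and 2 (x axis) and in replicate 3 (y axis) for each tested probe set, with the dashed line at equality. Blue points passed as lower, red points as higher, and grey points did not pass. Blue points lie almost wholly below 0 on both axes, while red points spread more widely.

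Genes whose products act together were followed in 42 lists, each described by its counts and median beside the 23.9% of genes that fell, the 12.3% that rose and the median of -0.06. The large subunit of the mitochondrial ribosome had the highest share of falls of the 42 lists. Of its 44 genes 36 fell and none rose, with a median of -1.20 and medians of -1.10, -1.17 and -1.59 in replicates 1 to 3. The median stayed negative after spike-in centring (-0.77). mRpL2 gave 8.13, 8.02 and 8.39 with GST and 4.72, 4.64 and 4.47 with M2 (-3.57 ± 0.16), and mRpL40 7.37, 7.46 and 8.18 with GST and 5.20, 5.15 and 5.13 with M2 (-2.51 ± 0.19). Neither gene showed any overlap of the groups. Of 25 genes of the small subunit 18 fell, with a median of -0.93. There mRpS21 fell from 10.53, 10.84 and 11.27 to 8.25, 8.34 and 9.21 (-2.28 ± 0.15), and mRpS17 from 8.16, 8.68 and 9.12 to 5.78, 6.03 and 6.42 (-2.58 ± 0.18). The exception was mRpS5, named after its value was seen, which rose by 0.89 ± 0.16 (limma, adjusted p = 0.0088).

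Other mitochondrial groups fell less evenly. Of 14 tested mitochondrial tRNA synthetases 7 fell (median -0.46), among them TrpRS-m from 7.81, 7.31 and 8.13 to 5.02, 4.80 and 5.19 (-2.75 ± 0.18) and ArgRS-m (-2.43 ± 0.23). Of 15 complex II and assembly factor genes 8 fell and 1 rose (median -0.47), which included CIA30, a complex I assembly factor (-1.61 ± 0.13), and sicily (-0.97 ± 0.12). Complex I had 9 falls among 25 genes and a median of -0.32, which became 0.11 after spike-in centring. Its count was 3 without M2 replicate 2, 5 without M2 replicate 1, GST replicate 3 or M2 replicate 3, and 6 with the replicate number as a block. ND-13B was its clearest fall, from 10.37, 10.74 and 10.66 to 9.18, 9.34 and 8.87 (-1.46 ± 0.18). In complexes III, IV and V none of 25 genes fell (2 without GST replicate 1). One gene rose there, UQCR-11, from 3.89, 3.47 and 4.68 to 5.12, 5.37 and 6.93 (1.80 ± 0.21). Of 13 tested mitochondrial import genes 2 rose and 1 fell. No rise was left under the replicate block or in 5 of the 6 fits that left out 1 array, and 1 was left without GST replicate 1. Tim9a was 1.24 ± 0.29 lower, a call lost without GST replicate 3, M2 replicate 1, M2 replicate 2 or M2 replicate 3.

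The lists of the tricarboxylic acid cycle and of glycolysis held no falls. None of 9 tricarboxylic acid cycle genes fell, and Idh rose by 0.48 ± 0.12, a call lost with the replicate block and without GST replicate 1, M2 replicate 1 or M2 replicate 2. Of 9 glycolytic genes 5 passed as higher (median 0.55), but only 1 or 2 did so when any single array was left out and 2 with the replicate block. Tpi, triose phosphate isomerase, gave 12.02, 12.39 and 12.25 with GST and 12.91, 12.80 and 13.46 with M2 (0.84 ± 0.18, limma, adjusted p = 0.017, 0.061 in the least favourable of these fits).

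Each list of the general transcription machinery held a larger share of falls than all tested genes. Of 26 Mediator genes 15 fell and none rose, with a median of -0.68 (-0.25 after spike-in centring). MED18 gave 9.52, 9.68 and 10.05 with GST and 7.72, 7.79 and 8.02 with M2 (-1.90 ± 0.13), and MED27 and MED20 fell by 1.86 ± 0.15 and 1.79 ± 0.17. The Mediator kinase gene Cdk8 fell from 5.98, 5.78 and 5.80 to 4.40, 4.28 and 4.37 (-1.50 ± 0.13). The pattern was the same in all 4 genes, with no overlap of the groups. Of 20 genes of TFIID and TFIIH 11 fell (median -0.71), and 4 were named: the helicase gene Xpd (-1.94 ± 0.21), Mat1 (-1.11 ± 0.13) and mrn (-1.32 ± 0.16) of TFIIH and Taf10b (-0.98 ± 0.13) of TFIID. Of 14 SAGA coactivator genes 10 fell and 1 rose (median -0.84), with Spt3 going from 5.40, 5.39 and 5.48 to 3.95, 4.03 and 3.65 (-1.55 ± 0.14). The riser was Ada2b (1.02, adjusted p = 0.013), named after its value was seen. Among RNA polymerase I and III genes 5 of 13 fell (median -0.23, 0.20 after spike-in centring), 3 of them without GST replicate 1, GST replicate 2 or M2 replicate 1. The polymerase III subunit gene Polr3G gave 7.43, 7.34 and 8.26 with GST and 4.56, 4.26 and 5.53 with M2 (-2.90 ± 0.14).

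Genes of DNA replication and chromosome segregation fell in similar proportion. Of 30 replication genes 20 fell and 1 rose (median -0.91), with medians of -0.67, -0.66 and -1.32 in replicates 1 to 3. Psf2, a subunit of the GINS complex of the replicative helicase, gave 7.69, 7.53 and 7.55 with GST and 4.73, 4.76 and 4.64 with M2 (-2.88 ± 0.12). Sld5, of the same complex, fell by 1.56 ± 0.12, Orc4 of the origin recognition complex by 2.56 ± 0.15 and the polymerase delta subunit gene PolD2 by 1.95 ± 0.15. Of 19 kinetochore genes 11 fell (median -0.78), and 7 with the replicate block or without GST replicate 1, M2 replicate 1 or M2 replicate 2. Nnf1b gave 6.28, 6.07 and 6.48 with GST and 3.22, 3.28 and 3.27 with M2 (-3.02 ± 0.14), and Nnf1a, its paralog, fell by 1.21 ± 0.21. Of 15 genes of the SMC complexes 6 fell (median -0.50, -0.07 after spike-in centring). The count was 5 with the replicate block and 4 to 7 when 1 array was left out. It was 4 without GST replicate 1, GST replicate 3, M2 replicate 2 or M2 replicate 3, near the background share. SMC5 fell from 9.52, 9.23 and 8.93 to 8.17, 8.40 and 6.69 (-1.47 ± 0.26). For Nse4 the values were 6.37, 6.34 and 5.20 with GST and 5.30, 5.18 and 4.38 with M2 (-1.02 ± 0.13), which overlap between the groups but not within an array set.

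DNA repair genes moved both ways. Of 17 tested, 3 fell and 5 rose, the rises numbering 1 to 4 when an array was left out (1 without M2 replicate 2) and 3 with the replicate block. DNA ligase 1 (DNAlig1) gave 7.93, 8.08 and 8.78 with GST and 6.33, 6.38 and 6.39 with M2 (-1.90 ± 0.19), and the ATM kinase gene tefu fell by 1.93 ± 0.24. Irbp, which encodes a Ku subunit of end joining, rose from 8.07, 7.69 and 7.62 to 9.04, 9.15 and 10.18 (1.66 ± 0.30).

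Of 11 delta class glutathione S-transferase genes with a probe set 8 reached the minimum mean of 4 and passed as higher, 7 of them with the replicate block and without GST replicate 1 or M2 replicate 2. GstD4, at 2.34, 2.52 and 4.13 with GST and 3.95, 4.89 and 7.09 with M2, reached that minimum only through its M2 values, so its call and the count of 8 follow in part from the filter. They ranged from GstD1, at 11.85, 11.87 and 12.32 with GST and 12.61, 12.46 and 13.23 with M2 (0.75 ± 0.13), to GstD5. GstD9 rose from 10.36, 10.22 and 10.02 to 11.79, 11.80 and 12.20 (1.73 ± 0.18). GstD7, at 5.83, 5.76 and 10.20 with GST and 7.37, 7.06 and 10.99 with M2, overlapped between groups and rose within both array sets (1.21 ± 0.18). These genes are close paralogs, and signal shared between their probe sets was not tested. Of 8 tested epsilon class genes 2 rose, GstE6 (1.26 ± 0.22) and GstE11 (1.81 ± 0.40), and GstE13 fell. Of 22 pigment and cuticle genes with a probe set 11 were tested, of which 4 rose and 1 fell. Beside y, e and Pu, described above, yellow-b rose from 5.73, 5.80 and 5.81 to 7.90, 7.89 and 7.87 (2.10 ± 0.11).

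Of 65 cytochrome P450 genes with a probe set only 25 reached the minimum mean, 16 of which passed as higher and none as lower (median 1.05). Since a gene low in control cells could enter only by rising, this count is not a property of the family. Cyp28a5, high enough to be tested from its GST level alone, gave 8.46, 8.42 and 7.92 with GST and 10.37, 10.23 and 10.89 with M2 (2.23 ± 0.25). The same held for Cyp9c1, which rose from 7.41, 7.36 and 7.38 to 8.39, 8.53 and 8.60 (1.12 ± 0.12). Cyp6d5 and Cyp4p1 rose by 2.65 ± 0.26 and 2.53 ± 0.35. Among antioxidant genes 4 of 14 rose and 2 fell (median 0.35). Catalase (Cat) gave 9.84, 9.63 and 10.42 with GST and 11.10, 11.16 and 11.71 with M2 (1.36 ± 0.13), Keap1, an adaptor that restrains the factor encoded by cnc, rose by 1.28 ± 0.24 and the glutamate-cysteine ligase gene Gclc by 1.01 ± 0.13. The peroxiredoxin gene Prx6a fell from 7.93, 8.31 and 8.16 to 5.86, 5.95 and 5.69 (-2.30 ± 0.15).

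In each of the stress, nutrient and immune lists most members did not pass, as over all genes, of which 36.2% passed. Of 15 unfolded protein response genes 4 rose and none fell (median 0.30), 2 of them with the replicate block or without GST replicate 2, M2 replicate 1 or M2 replicate 2. Herp gave 6.60, 6.46 and 7.00 with GST and 7.65, 7.61 and 8.64 with M2 (1.28 ± 0.16). Of 24 chaperone genes 5 fell and none rose (median -0.14, 0.29 after spike-in centring). Of 24 amino acid and TOR pathway genes 6 fell and 2 rose, with 3 falls and no rise without M2 replicate 1 or M2 replicate 2. AsnS, asparagine synthetase, fell from 10.46, 10.51 and 9.60 to 9.48, 9.35 and 8.47 (-1.09 ± 0.12). Of 22 autophagy genes 6 fell and 1 rose (median 0.04). The falls numbered 4 in 5 of the 6 fits that left out 1 array and 5 with the replicate block. Atg7 was lower (-1.29 ± 0.24), and Atg18b went from 7.01, 6.85 and 6.42 to 8.76, 8.79 and 10.73 (2.67 ± 0.49). The antifungal peptide gene Drs rose from 7.23, 6.36 and 5.99 to 9.15, 9.12 and 10.34 (3.01 ± 0.45) in a list where 2 of 16 genes rose and none fell. The list had 1 rise with the replicate block and in 5 of the 6 fits that left out 1 array, and 1 fall without GST replicate 3 or M2 replicate 3. Of 9 apoptosis genes 2 rose and 1 fell, the fall being lost with the replicate block and in each of the 6 fits that left out 1 array, and Dark, the fly homologue of Apaf-1, was 0.59 ± 0.12 higher, a call lost without M2 replicate 1 or M2 replicate 2.

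The cytosolic ribosome, proteasome and lysosome lists held 1 call among them. None of 27 cytosolic ribosomal protein genes passed, with differences between -0.18 and 0.08 at a median GST level of 15.4, near the top of the scale. Of 26 proteasome genes 1 passed, Rpn1, which was 0.51 higher, a call lost with the replicate block and without M2 replicate 1 or M2 replicate 2. None of 24 lysosome and V-ATPase genes passed. The splicing and nuclear pore lists held a share of falls near or below that over all genes. Of 27 splicing genes 4 fell and 1 rose, but 1 fell with the replicate block and in 5 of the 6 fits that left out 1 array, and that of Prp38 was -1.26 ± 0.13. Of 25 nuclear pore genes 6 fell and 1 rose (median -0.31, 0.12 after spike-in centring), 4 of them in 5 of those 6 fits and with the replicate block. Nup133 gave 8.25, 8.18 and 9.08 with GST and 6.87, 6.71 and 8.03 with M2 (-1.30 ± 0.14), and Nup37 fell by 2.14 ± 0.28.

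The partners of MBD-R2 were little changed. Of 7 tested genes of the NSL complex and MOF, Rcd5 was 0.64 ± 0.12 higher (limma, adjusted p = 0.010), a call lost without M2 replicate 1 or M2 replicate 2. The mof gene gave 7.45, 6.60 and 6.45 with GST and 6.79, 6.66 and 6.41 with M2, a difference of -0.21 ± 0.24 that did not pass. None of 7 MSL genes passed, the smallest p being that of mle (0.39 ± 0.17, adjusted p = 0.13), and 1 fell when GST replicate 2 was left out.

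**Figure D4:**
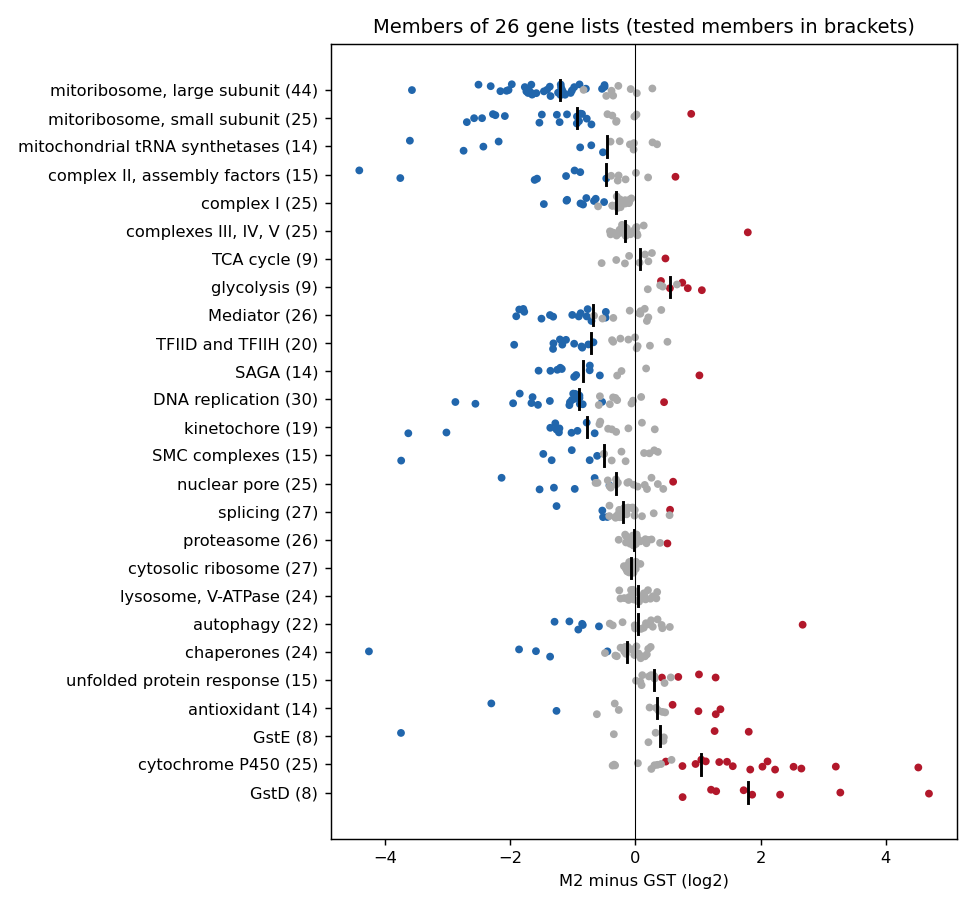
M2 minus GST (log2, x axis) of the tested members of 26 gene lists, 1 point per gene, with the number of tested members in brackets and a black bar at the list's median. Blue points passed as lower, red points as higher, and grey points did not pass. The mitoribosome, Mediator, SAGA and replication lists lie mostly left of 0, the GstD and cytochrome P450 lists right of it, and the cytosolic ribosome and proteasome lists stay close to it.

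Markers of other cell types were mostly at the lowest part of the scale in both groups. Within 1 unit of the lowest value in both groups were 7 of 11 neuronal, 8 of 11 muscle, 6 of 8 fat body and 9 of 11 epidermal genes, including nSyb, VGlut, Mlc1, Mlc2, Yp1, Lsp2, kkv and verm at 2.22 or 2.23 throughout. The summed level of the neuronal list was 7.78 to 8.86 in GST arrays and 8.99 to 10.06 in M2 arrays, and that of the muscle list 7.80 to 8.28 and 8.59 to 10.05. Few genes contributed to these sums. Of 4 tested neuronal genes 3 rose, 2 with the replicate block. The highest in GST arrays were elav, which averaged 6.63 with GST and 7.73 with M2, and cac, at 6.47 and 7.10. The presynaptic gene brp gave 6.30, 6.29 and 6.06 with GST and 7.59, 7.42 and 7.44 with M2 (1.27 ± 0.12), and the sodium pump subunit gene nrv3 4.20, 3.70 and 2.95 with GST and 5.98, 5.54 and 6.75 with M2 (2.47 ± 0.43). The GST mean of nrv3 was 3.62, so it reached the minimum mean of 4 only through its M2 values. The count of 3 neuronal rises thus follows in part from the filter. Germline genes differed among themselves. Of 6 tested, aub (-0.99 ± 0.13), vls (-1.53 ± 0.17) and zpg (-2.20 ± 0.29) fell, and piwi, gcl and AGO3 did not pass. Below the minimum mean and thus not tested, osk averaged 2.41 with GST and 5.06 with M2, and bam 2.25 and 3.02. The summed germline level was 10.75 to 11.20 with GST and 10.06 to 10.54 with M2. In the ovarian soma list fs(1)Yb, a piRNA pathway gene, fell from 7.61, 7.72 and 7.63 to 5.25, 5.18 and 4.54 (-2.66 ± 0.17), and tj, the defining factor of that tissue, was at 2.22 in both groups. Among hemocyte genes NimC1, a phagocytosis receptor, rose from 9.32, 9.16 and 9.19 to 11.52, 11.65 and 10.95 (2.15 ± 0.17) and the prophenoloxidase gene PPO3 fell by 1.57 ± 0.16, while 21 of 24 did not pass. Fewer cells of a kind and less RNA per cell cannot be told apart in such samples, and the part of marker genes in the other differences was not tested.

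Falls were concentrated in short genes. The 5900 tested genes with an annotated length were split into 5 classes of 1180 by the length of the whole gene, introns included. In the shortest class, 267 to 1407 bases, 49.6% of genes fell, in the following classes 33.7%, 20.9% and 11.4%, and in the longest class, 7391 to 291517 bases, 3.73%. Rises went the opposite way, from 8.31% of the shortest to 18.9% of the longest genes. This gradient of rises depended on the settings. The shares were 3.31% and 4.49% with no block, and 0.678% and 0.508% with spike-in centring. With GST replicate 2 also left out they were 5.51% and 6.02%, beside falls of 53.9% and 9.92%. The median length was 1591 bases among genes that fell, 4033 among those that rose and 3442 among those that did not pass.

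The relation to length was seen in each M2 array. The mean level of the shortest class minus that of the longest was -0.10, 0.21 and 0.11 in the GST replicates, and -0.87, -0.85 and -0.80 in the M2 replicates. The 3 M2 arrays were thus close to each other and below all GST arrays. The group means were 0.07 ± 0.16 (SD, n = 3) and -0.84 ± 0.03 (SD, n = 3), a difference of -0.91. An exact two-sided permutation test gave p = 0.10, the smallest value that 3 arrays against 3 allow. M1 arrays gave -0.64, -0.87 and -0.66, and the array without dsRNA gave 0.09. M1 and M2 share the GST controls in any difference, but these values per array do not use them.

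**Figure D5:**
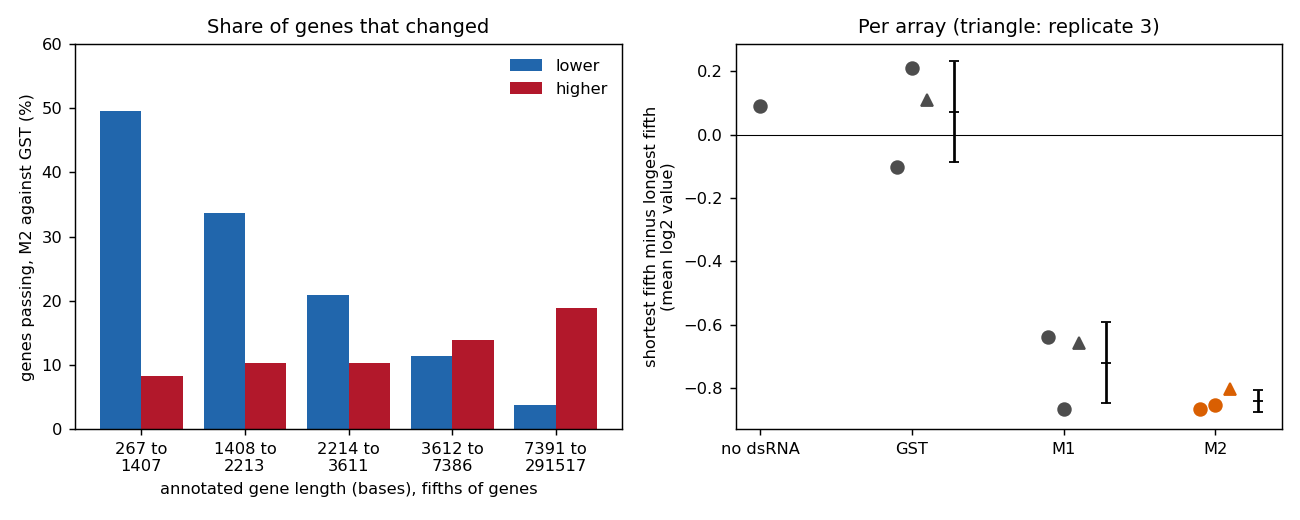
Left, percent of tested genes that were lower (blue) or higher (red) with M2 in 5 classes of annotated gene length in bases. Right, mean log2 value of the shortest class minus that of the longest class in each array, with triangles for replicate 3 and bars at the mean ± SD of 3 arrays. Falls drop from 49.6% to 3.73% from left to right, and the M2 and M1 arrays lie below the GST arrays and the array without dsRNA.

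The length relation was present at all expression levels and on each large chromosome arm. With genes also split into 5 classes by their level in the culture without dsRNA, short genes fell in 46.5, 61.6, 64.7, 54.0 and 23.9% of cases from the lowest to the highest level, against 3.04, 7.88, 4.37, 3.86 and 0.727% of long genes. On arms 2L, 2R, 3L, 3R and X, 53.6, 47.4, 47.7, 53.2 and 42.9% of the shortest class fell, and at most 4.56% of the longest. Without the mitochondrial ribosome genes 47.7% of 1119 short genes fell. The gap between the median differences of the shortest and longest class was -0.73, and it lay between -0.84 and -0.64 under all alternatives run.

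The gene lists differed in length. The mitochondrial ribosome genes, which mostly fell, were short, with a median length of 909 bases in the large subunit. The proteasome genes were also short, with a median of 1378 bases and 15 of 26 in the shortest class, and none fell. The 27 cytosolic ribosomal genes, with a median of 1176 bases, did not fall either. The GstD genes, with a median of 798 bases, rose. The replication genes had a median of 2387 bases, close to the 2780 of all genes, and fell in more than the background share. The SMC genes had a median of 4374 bases, and 6 of 15 fell. That count came down to 4, near the background share, in some of the fits that left out 1 array. The part of length in the list results was not tested.

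Expression level and chromosome made smaller differences. By classes of level in the culture without dsRNA the share of falls was 26.4, 35.0, 28.5, 21.0 and 8.62%, and the share of rises 22.6, 14.3, 9.21, 9.89 and 5.75%. The lowest class, 2.25 to 6.83, includes genes that reached the minimum mean of 4 only through their M2 values. Its shares therefore follow in part from the filter. On the autosomal arms 24.1 to 26.7% of genes fell, on the X chromosome 17.7% (176 of 997) and on the small chromosome 4 none of 42, where 7 rose (16.7%). Of the genes lying next to a fallen gene without overlap, 29.0% fell (364 of 1257), against 23.0% next to a gene that did not pass (789 of 3427) and 104 of 604 next to a gene that rose. These shares are counts over genes, which are not independent replicates.

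Construct M2 was set against construct M1 directly, since the pair target the same transcript and the direct difference does not use the GST arrays. No probe set passed in limma (0 of 7308, 0.0%), while 116 reached an unadjusted p under 0.05. At 7187 probe sets (98.3%) the constructs differed by less than 0.5 log2 units, and at 5 by more than 1. The half-width of the 95% interval of M2 minus M1 had a median of 0.37. It holds for 1 probe set without adjustment, so larger differences than this could also go uncalled over 7308 probe sets. The smallest p was that of lute, which was 1.25 ± 0.47 (95% interval half-width) higher with M2 than with M1 (adjusted p = 1.00). Its M2 values were 6.67, 6.71 and 4.94, GST values 6.57, 6.03 and 4.69, and the M1 mean was 4.86. Npc2a, a sterol carrier gene, was 0.51 ± 0.28 lower with M2 than with M1, and wol 0.53 ± 0.29 higher. All 15 largest falls and all 15 largest rises of M2 were also called between M1 and the shared GST arrays. Their direct M2 minus M1 differences ran from -0.54 to 0.29 for the falls and from -0.75 to 0.11 for the rises.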

How the data were processed

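RNA was measured on 10 Affymetrix Drosophila arrays, of which 6 enter the comparison. The authors deposited log2 expression values of each probe set, made with GCRMA per the submitters' processing notes. Its version is not given in the sources used here. Of 18952 probe sets 183 are controls, 13646 carry 1 gene in the platform annotation, 402 several and 4721 none here. Symbols and lengths came from RefSeq through Entrez identifiers (13543 probe sets matched).

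Samples were grouped by source name. Probe sets with a mean log2 of at least 4 over the 6 arrays were tested with limma 3.58.1 (R 4.3.3), lmFit and eBayes, with the array set as a block, with p-values adjusted over all 7308 (Benjamini-Hochberg, two-sided tests, threshold 0.05). M2 minus M1 was fitted on the 9 dsRNA arrays. The number of arrays limits the precision. The median half-width of the 95% interval of M2 minus GST was 0.40. Each gene was followed through 1 probe set, that of the highest mean. In 328 genes with over 1 tested probe set, 1 had calls in opposite directions. The members and lists were chosen with earlier results of these data known. Of 1051 list entries 23 matched no gene.

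Named genes were the 15 largest rises and falls that met the conditions given with them, in each list up to 4 members that met them, ranked by adjusted p, or otherwise its top member, and the 3 smallest p of M2 against M1, where none was called. Genes outside the rule are given as overlap partners, markers, paralogs, NSL members or single exceptions.

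Deviations from the group means correlated between GST and M2 arrays of the same number (r = 0.48, 0.48 and 0.71), between different numbers of the first array set (0.55 and 0.60) and across sets (-0.69 to -0.54). Within the first array set the same numbers correlated no more than different numbers. These values thus show the array set and no further pairing by number. A fit with the replicate block was run as an alternative. Alternatives were no block, all 9 arrays, replicates 1 and 2 alone, filters, quantile, median and spike-in (18 probe sets) scaling, eBayes options, a stricter threshold, single probe sets per gene and the omission of each array. The test was checked on simulated data for the M2 against GST comparison over 7308 probe sets. It called 64 of 100 changes of 1 log2 unit, 80 of 100 changes of 2 and 5 of 7108 unchanged probe sets. The changed probe sets were a far smaller share than the 34.8% called in the data. The adjustment depends on that share, so these rates hold for the simulated setting only. Python 3.11.15 with matplotlib 3.10.9 drew the figures.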

Additional observations from a re-analysis of the deposited data

How the results depend on the processing

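The numbers of probe sets called between M2 and GST (2543, with 991 higher and 1552 lower) moved with several choices, and the cause was not tested except where the setting itself tests more or fewer probe sets or uses fewer arrays. No block gave 1188 calls (289 higher, 899 lower), no filter on the mean level 871 (226 higher, 645 lower, 18769 probe sets tested), and an adjusted p under 0.01 gave 1330 (381 higher, 949 lower). Spike-in centring gave 63 (50 higher, 13 lower) and, with GST replicate 2 left out, 395 higher. Leaving out 1 array gave 1572 to 2360 calls, 479 to 1013 higher and 1061 to 1491 lower. Numbers within 1.5 times of the first came from a minimum mean of 6 (2035), quantile normalisation (2692), median centring (2718), all 9 dsRNA arrays (3025), replicates 1 and 2 alone (2167), trend and robust options (2646) and 1 probe set per gene (2227). With the replicate block, treating the numbers as pairs, 1994 passed (707 higher, 1287 lower), and of 126 named genes 2 lost their call, Idh and Rpn1, and no other. The named genes called between M2 and GST kept their direction in every fit that gave them a value. Of the named genes not called, VhaSFD (-0.09) and mle (-0.12) turned negative with spike-in centring and GST replicate 2 left out, and RpS21 turned positive (0.28) with spike-in centring. Calls among them were lost by 102 of 126 with spike-in centring, 45 without the filter, 23 without a block and at most 9 under the others. List medians changed sign for 12 of 42 lists under each of the spike-in settings. They went from negative to positive with spike-in centring, and from positive to negative with GST replicate 2 also left out. Lists of either direction thus depended on the scaling. M2 against M1 gave 0 calls in limma under every setting, with 2 to 364 probe sets at an unadjusted p under 0.05 and 53, 52 and 268 without M2 replicates 1, 2 and 3 and 68, 228 and 157 without M1 replicates 1, 2 and 3. Promoter motif shares were not run, since promoter sequence was not used here. With 3 arrays a group and 1 per group in the second array set, rises and falls of low genes are bounded by the lowest value, and no outlier check is made in groups of this size.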
